A study of Homo sapiens with 6 samples.

Results

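The genes described here encode the protein factors that take a ribosome through initiation, elongation and termination on an mRNA, together with a few close relatives of those factors. The list held 52 human genes chosen by symbol and sorted by role. Each gene was read from its brightest probe set, a group of short array probes for one transcript, among probe sets assigned to 1 gene symbol. By this rule 49 of the 52 genes were measured, and all 49 were among the 12198 genes bright enough to be tested. EIF4G3 and EEF1E1 matched no listed probe set, and EIF3C was read only by probe sets shared with its near copy EIF3CL.

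The arrays measured RNA of P493-6, a human B lymphoma cell line carrying a c-Myc transgene that tetracycline switches off. In low-Myc cells the transgene had been released for 0 hours, in mid-Myc cells for 1 hour and in high-Myc cells for 24 hours, with 2 arrays in each group, described by the submitters as biological duplicates. The samples of all 3 groups carried the same transgene and grew in RPMI 1640 with fetal bovine serum, so the groups differ by time since release, and all describe 1 line. One label field gives the mid-Myc cells 0 hours and another gives 1 hour, and 1 hour was used. The sample numbers of mid-Myc stand apart from those of the other groups, and if its arrays were made separately, that difference and a 1-hour response cannot be told apart.

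In initiation, the eIF2 complex carries the initiator tRNA to the small ribosomal subunit, the eIF4 factors bind the mRNA cap and unwind the leader, and eIF1, eIF1A and eIF5 govern the choice of start codon. The eIF3 complex holds these parts together, and eIF5B joins the large subunit. In elongation, eEF1A delivers aminoacyl-tRNA and eEF2 moves the ribosome along, until the release factors eRF1 and eRF3 end the chain. c-Myc is a transcription factor that binds the E-box CACGTG, and genes of protein synthesis, EIF4E among them, are long known as its targets.

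Every change below is a difference of group means in log2, so that 1 unit is a 2-fold change, with its standard error (SE) and n = 2 arrays in each group. Values are given on 2 scales. On the per-cell scale, ERCC synthetic RNAs, which were added according to cell number, set the reference. On the equal-median scale, the median human probe set of every array was set to the same value, so that a change there is relative to the other genes of the array. A gene was called, and is said to have risen or fallen, where the adjusted p of limma's moderated test over all 12198 genes was under 0.05. In RNA from a whole culture, a change in every cell and a change in the share of cells that express a gene cannot be told apart.

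The mean intensity of an array lay between 252.9 and 263.6, and arrays of the same group correlated at r = 0.9962 to 0.9965 over the 12198 tested genes. The ERCC probe sets of high-Myc arrays read 1.36-fold (dim), 2.55-fold (middle) and 1.82-fold (bright) below those of low-Myc arrays, which is why a curve and not a single factor was used. After the curve their median log2 differences were -0.024 (dim), -0.154 (middle, intensity 69.6 to 1615) and -0.028 (bright). The middle range was thus not fully levelled. MYC, which was read by a very bright probe set, was higher per cell in high-Myc than in low-Myc by 0.96, and by 0.13 in mid-Myc. The high-Myc change of MYC was close to the per-cell median of all tested genes, 0.97, so on that scale it does not check the high-Myc label. Its equal-median changes were 0.34 and 0.10, too small to check the mid-Myc label. The summed intensity of 6 measured B-cell markers was 23010 to 23180 in low-Myc, 23870 to 24730 in mid-Myc and 15150 to 15310 in high-Myc. The 3 T-cell markers summed to 98.38 to 143.9 on any array, with CD3D, CD3E and CD2 averaging 19.1, 42.4 and 58.6. The 3 monocyte markers summed to 1402 to 1521 in low-Myc and mid-Myc and 470.8 to 498.4 in high-Myc, with LYZ, CD68 and CD14 averaging 836, 149 and 17.3. The 2 plasma-cell markers summed to 134.1 to 145.1 in low-Myc, 175.2 to 177.6 in mid-Myc and 129.7 to 139.6 in high-Myc. These sums are of deposited intensity. Per cell, MS4A1, CD22, CD74 and PAX5 rose by 0.33, 0.26, 0.30 and 1.34 in high-Myc against low-Myc. CD79A was not called (-0.05), and CD79B changed by -0.59, though neither of its 2 further probe sets had that sign. LYZ changed by -0.41, CD68 by 0.01 and CD14 by 0.001. Whether the lower summed deposited B-cell and monocyte signals at 24 hours have a part in any result below was not tested.

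At 24 hours, transcripts of the translation factors stood higher both per cell and relative to other genes. On the per-cell scale all 49 measured genes rose in high-Myc against low-Myc, from 0.66 for EIF1 to 4.51 for BZW2, with a median of 1.69. Most of the genome did the same: 90.8% of all tested genes were called higher and 2.53% lower, with a median of 0.97. The rise reached 2-fold or more in 43 of the 49 genes. The median of all tested genes, 0.97, was itself close to 2-fold, and their share at 2-fold or more was not counted. Relative to the median gene, 46 of 49 rose and 0 fell, with a median change of 0.68 beside 0.05 over all tested genes. There the background was 37.7% called higher and 26% lower. The 3 genes not called on that scale were EIF1, EIF1B and EIF3H. Under other centrings the split of all genes, 4598 higher and 3172 lower, became 3741 and 4177 with quantile normalization and 3500 and 4931 with centring on the tested genes, and that of the members became 32 and 6, and 35 and 5. The 11 members whose direction turned under quantile normalization had equal-median changes from 0.003 (EIF1B) to 0.27 (BZW1), and their direction relative to other genes rests on the centring.

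**Figure D1:**
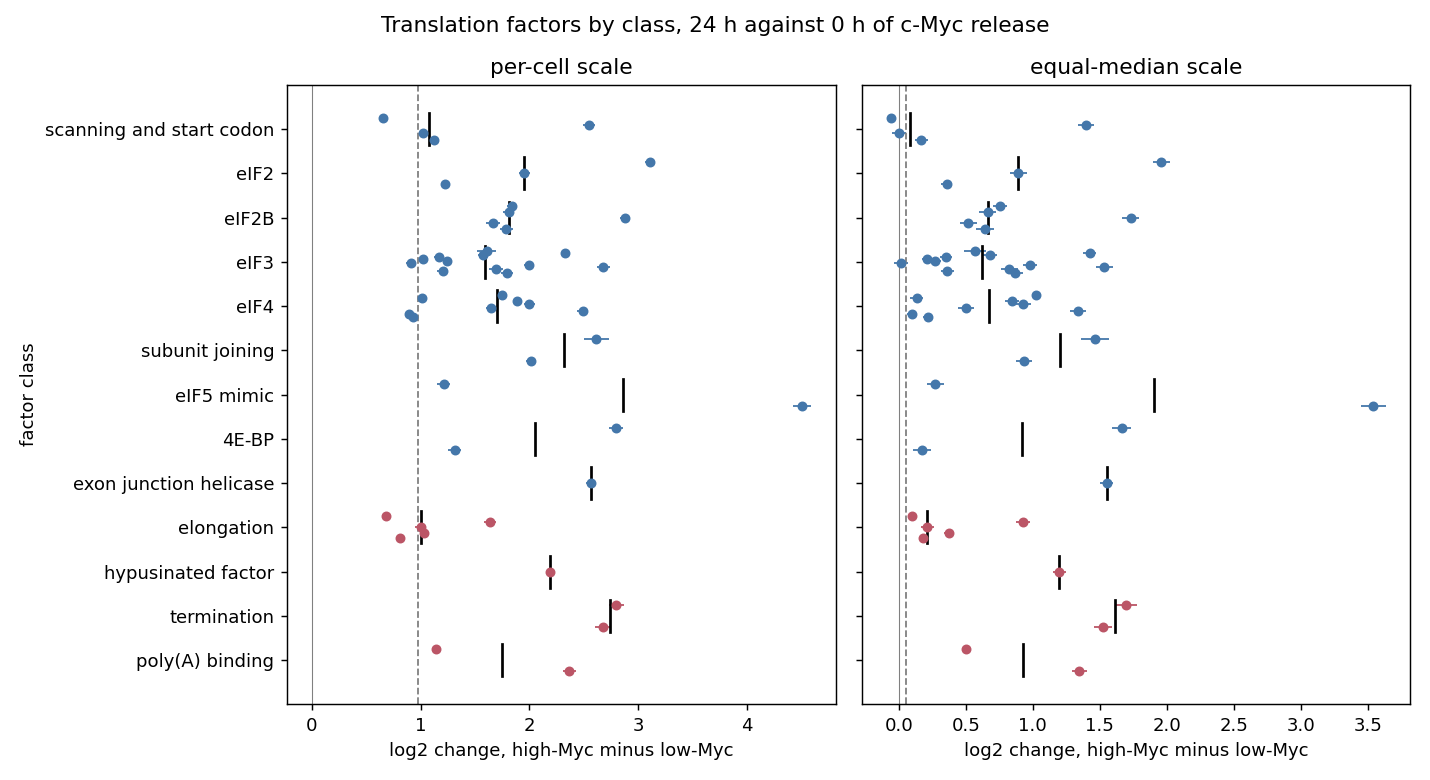
Change of each translation factor gene in high-Myc against low-Myc, in log2, by class, on the per-cell scale (one panel) and the equal-median scale (other panel). Points are genes with their SE, black bars are class medians, the dashed line is the median of all tested genes (0.97 per cell, 0.05 equal-median), red marks the elongation, EIF5A, termination and poly(A) classes and blue all others; BZW2 stands above every other gene, and the scanning and elongation classes sit lowest.

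One hour after release the changes were small. Per cell, 46 of 49 genes rose and 0 fell, with a median of 0.38, beside 62.4% of all genes called higher, 0.697% called lower and a median of 0.30. EIF1AX changed most, by 0.98, and EIF3A, EIF4A2 and EIF5B were not called. Relative to the median gene, 30 of 49 rose and 0 fell, with a median of 0.25 beside 0.09 over all genes and 0.21 over the 1219 brightest genes. The background there was 25.7% higher and 3.39% lower. These counts rest on the centring: with quantile normalization 12 members were called higher and 8 lower, with cyclic loess 13 and 7, and as deposited 20 and 5. The split of all genes moved in the same step, from 3139 higher and 414 lower to 955 and 1195 with quantile normalization.

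Between 1 and 24 hours all 49 genes rose again per cell, with a median of 1.29, against 81.7% of all genes called higher, 6.57% lower and a median of 0.72. Relative to the median gene, 35 rose and 4 fell, where 33.3% of all genes were called higher and 30.9% lower. The 4 that fell were EIF1, EIF1B, EIF5 and EEF1D. The median of the members was 0.47, and that of all genes 0.02. In the medians the step after the first hour was larger than the first on both scales. By the probe sets used, those 4 genes were brightest, relative to the other genes, at 1 hour.

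The promoters of these genes are shown before the values by class, because CACGTG is the sequence c-Myc binds. RefSeq promoter windows (GRCh38.p14) were matched to 42 of the 52 genes, and 9 of the 42 (21.4%) held CACGTG, which reads the same on both strands, within 250 bases before the transcription start. Over all 27305 genes with a window the share was 2110 (7.73%). Counted over windows rather than genes, the shares were 14.8% for 61 windows of these genes and 6.34% for all 35116. The genes with the box were EIF1B, EIF2B3, EIF3F, EIF3K, EIF4A3, EIF4B, EIF4E, EIF4G1 and EIF4H. EIF4E, which encodes the cap-binding protein, and EIF4G1, the scaffold it binds, each held 2 boxes, printed in capitals within the 250 bases upstream of the start, 5′ to 3′ along the gene. The EIF4E window is chr4:98929134-98929383 on the minus strand and the EIF4G1 window chr3:184314356-184314605 on the plus strand.
EIF4E: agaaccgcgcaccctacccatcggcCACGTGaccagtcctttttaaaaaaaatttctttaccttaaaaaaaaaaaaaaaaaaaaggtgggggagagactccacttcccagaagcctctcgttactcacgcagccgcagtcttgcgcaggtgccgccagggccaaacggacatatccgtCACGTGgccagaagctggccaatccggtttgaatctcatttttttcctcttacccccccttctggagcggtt
EIF4G1: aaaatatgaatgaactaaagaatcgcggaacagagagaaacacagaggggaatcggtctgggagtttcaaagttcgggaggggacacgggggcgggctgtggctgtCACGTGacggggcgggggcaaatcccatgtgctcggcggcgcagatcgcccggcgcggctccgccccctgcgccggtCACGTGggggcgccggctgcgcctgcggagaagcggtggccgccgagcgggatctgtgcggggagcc
In EIF4E the boxes lay at -225 to -220 and -72 to -67 from the start, and in EIF4G1 at -144 to -139 and -67 to -62.

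The next 4 stretches, of 80 bases each, set 2 genes with a box and a large 24-hour rise beside 2 with a box and little or no relative change. EIF4A3 is at chr17:80147207-80147286 (minus strand), EIF2B3 at chr1:44986732-44986811 (minus), EIF1B at chr3:40309616-40309695 (plus) and EIF3F at chr11:7987232-7987311 (plus), with the box again in capitals.
EIF4A3: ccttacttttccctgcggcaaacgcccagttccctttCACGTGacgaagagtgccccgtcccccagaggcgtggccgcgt
EIF2B3: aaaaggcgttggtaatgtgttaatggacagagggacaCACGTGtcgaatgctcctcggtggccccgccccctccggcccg
EIF1B: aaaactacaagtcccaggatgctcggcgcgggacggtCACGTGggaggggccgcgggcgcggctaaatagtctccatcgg
EIF3F: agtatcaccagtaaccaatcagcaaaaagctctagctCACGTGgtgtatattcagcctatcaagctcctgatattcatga
The box began at base -121 in EIF4A3, -179 in EIF2B3, -54 in EIF1B and -68 in EIF3F. The 9 genes with a box had a median equal-median change of 0.85 at 24 hours, from 0.003 for EIF1B to 1.73 for EIF2B3. The 30 measured genes with a window and no box had a median of 0.72, from -0.06 for EIF1 to 3.54 for BZW2. Per cell the medians were 1.89 and 1.77. The difference between these groups was not tested. The gene with the largest change, BZW2, had no CACGTG in its 250 bases (chr7:16645931-16646180, plus strand).
BZW2: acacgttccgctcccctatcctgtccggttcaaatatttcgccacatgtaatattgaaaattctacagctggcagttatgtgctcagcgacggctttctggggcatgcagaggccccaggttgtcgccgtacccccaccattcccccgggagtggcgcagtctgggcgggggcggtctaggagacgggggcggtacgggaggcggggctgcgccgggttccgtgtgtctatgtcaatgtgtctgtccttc
A match, or the lack of one, describes the letters of this window and not the binding of c-Myc.

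Of the 4 genes for start-codon scanning, EIF1AX, which encodes eIF1A, rose by more than 2-fold relative to other genes. By the probe sets used, EIF1, EIF1B and EIF5 peaked at 1 hour. The deposited intensity of EIF1AX was 306.2 and 329.2 in low-Myc, 476.1 and 480.1 in mid-Myc and 765.6 and 756.5 in high-Myc. The 3 groups did not overlap and stood in the order of release time. The equal-median change was 0.74 at 1 hour (SE 0.06, adjusted p = 3.02e-06) and 1.40 at 24 hours (2.64-fold, adjusted p = 1.73e-10), and the per-cell change at 24 hours was 2.55 (5.85-fold). EIF1 encodes the factor that guards against wrong start codons, and its intensity was 6744 and 6787, then 7735 and 7753, then 6066 and 5757. Its brightest arrays were thus those of mid-Myc. Relative to the median gene EIF1 rose by 0.35 at 1 hour (adjusted p = 1.6e-05) and then fell by 0.40 (adjusted p = 1.67e-07), and at 24 hours it stood at -0.06 from low-Myc (SE 0.04, adjusted p = 0.179). Per cell it rose by 0.66 (1.58-fold), the smallest 24-hour rise among the 49 genes.

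EIF1B, a close copy of EIF1, gave 1254 and 1191, then 1385 and 1377, then 1103 and 1121. Like EIF1 it was highest in mid-Myc, rising by 0.33 at 1 hour (adjusted p = 0.000456) and falling by 0.32 after it (adjusted p = 7.89e-05), with 0.003 between high-Myc and low-Myc (SE 0.05, adjusted p = 0.962). It is one of the genes with an E-box shown above. EIF5, the partner of eIF2 that triggers GTP hydrolysis at the start codon, gave 1639 and 1570, then 2171 and 2176, then 1662 and 1611. It rose by 0.59 at 1 hour (adjusted p = 2.18e-06) and fell by 0.42 by 24 hours (adjusted p = 2.43e-06). A dimmer EIF5 probe set (mean intensity 277.4) changed by 0.08 at 1 hour and by 0.52 after it. The other further ones changed by -0.07 to -1.18 after 1 hour. The remaining 24-hour change of EIF5, 0.17 (adjusted p = 0.0065), lost its call without the second low-Myc array (0.13, adjusted p = 0.0564), and its further probe sets ran from -0.93 to 0.61. Per cell EIF1B rose by 1.02 and EIF5 by 1.12 at 24 hours.

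**Figure D2:**
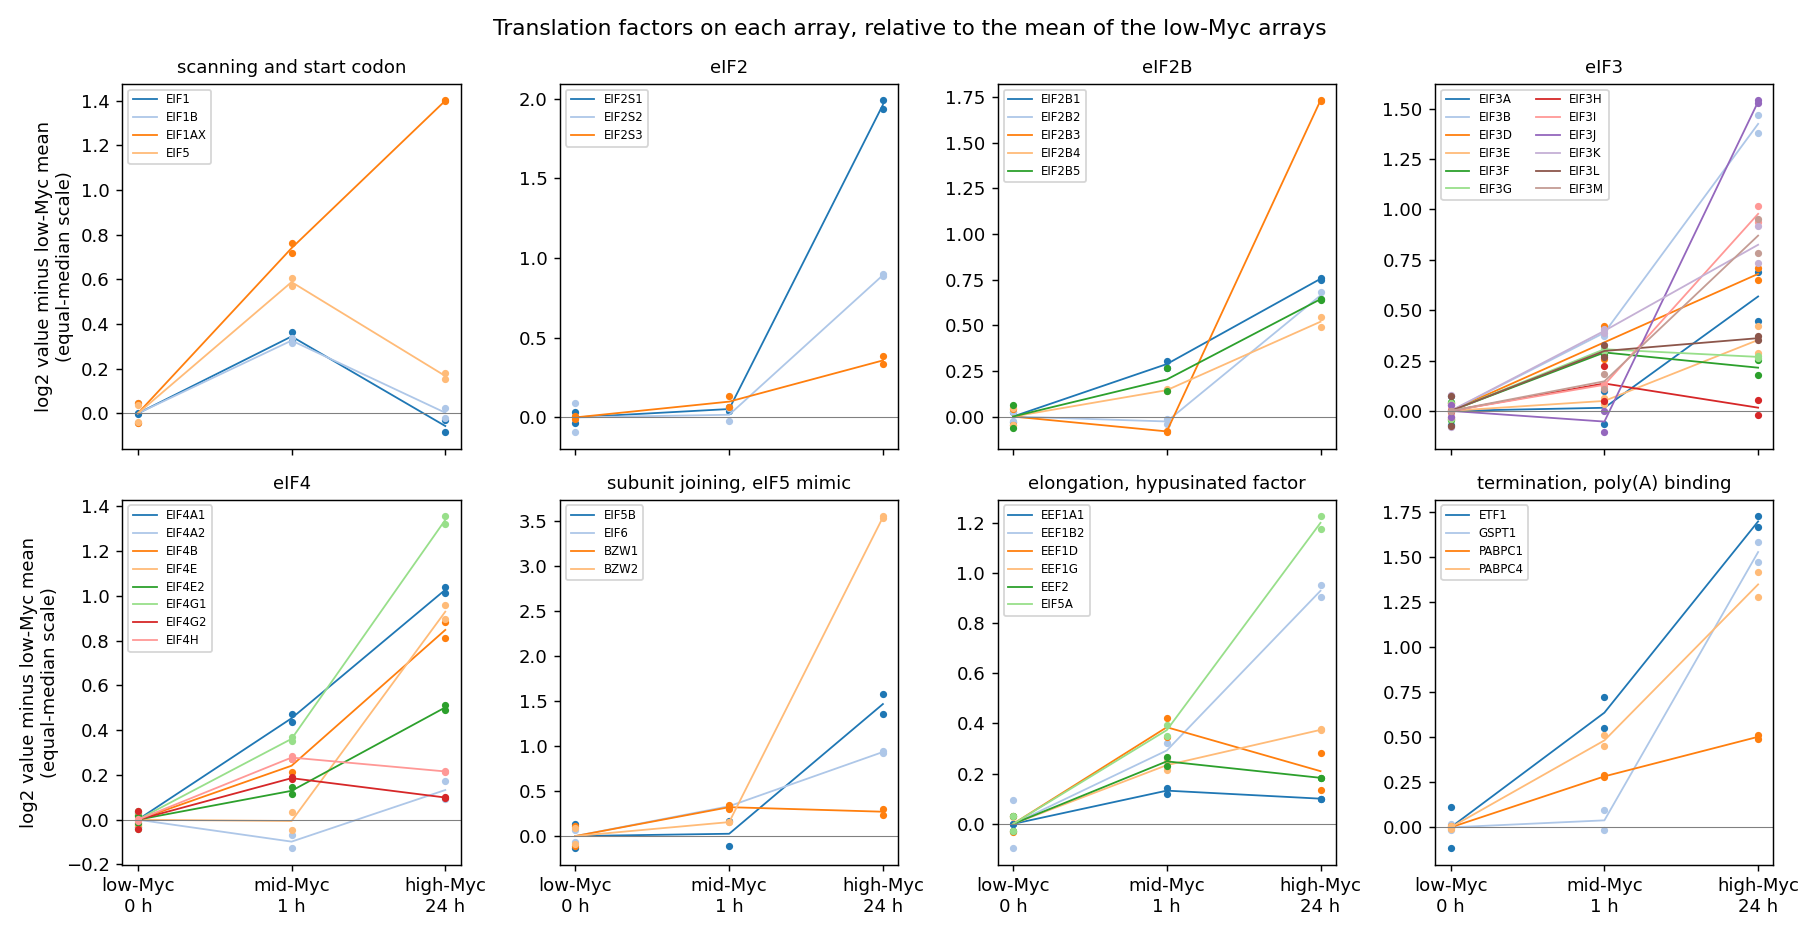
Equal-median log2 value of the members on each of the 6 arrays, minus the mean of the low-Myc arrays, in 8 panels by class. Points are arrays, lines join group means, and the groups are spaced equally although they stand 0, 1 and 24 hours after release. Many lines rise a little to mid-Myc and most rise further to high-Myc. EIF1, EIF1B, EIF5 and EEF1D peak at mid-Myc and were called lower after it, and some others, such as EIF3F and EEF2, are nearly level after it. EIF4A3 and the 4E-BP genes are not drawn.

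All 3 subunit genes of eIF2 rose at 24 hours, as did 37.7% of all tested genes relative to the median gene and 90.8% per cell. EIF2S1 encodes the alpha subunit, which stress kinases phosphorylate, and read 367.1 and 353.9 in low-Myc, 338.5 and 335.2 in mid-Myc and 1310 and 1240 in high-Myc. Both high-Myc arrays lay far above the other 4. The change at 24 hours was 1.96 on the equal-median scale (3.89-fold, SE 0.06, adjusted p = 6.93e-12) and 3.11 per cell (8.62-fold), and at 1 hour it was 0.05 relative to other genes (adjusted p = 0.56). Of the 4 further EIF2S1 probe sets, one gave an equal-median change of 1.98 at 24 hours and 3 gave 1.01 to 1.22, so the size of the rise depends on the probe set. The beta subunit gene EIF2S2 read 887.4 and 789.1, then 749.9 and 775.8, then 1427 and 1395. It rose by 0.89 at 24 hours (1.86-fold, SE 0.06, adjusted p = 2.4e-08) and by 1.95 per cell. EIF2S3 encodes the gamma subunit that binds GTP and the initiator tRNA, and read 2877 and 2868, then 2735 and 2812, then 3309 and 3375. Its relative rise was 0.36 (1.28-fold, SE 0.04, adjusted p = 4.78e-06), and its per-cell rise 1.22.

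All 5 genes of eIF2B, the exchange factor that reloads eIF2 with GTP, were called higher at 24 hours on both scales, with an equal-median median of 0.66 and a per-cell median of 1.81. EIF2B3, a subunit of its catalytic part, read 304.9 and 289.7 in low-Myc, 255.4 and 250.7 in mid-Myc and 902.1 and 889.8 in high-Myc. It rose by 1.73 relative to other genes (3.32-fold, SE 0.06, adjusted p = 3.12e-11), and the high-Myc arrays were well apart from the rest. EIF2B1, in the regulatory part, read 689.1 and 723, then 775.5 and 777.7, then 1093 and 1069, a rise of 0.75 (SE 0.05, adjusted p = 2.11e-08). EIF2B4 and EIF2B5 changed least: EIF2B4 read 345 and 372.4, then 362.9 and 351.4, then 461.1 and 472.5, a rise of 0.52 (adjusted p = 6.82e-06). EIF2B5, the catalytic subunit, read 375.3 and 347.6, then 395.6 and 354.9, then 515.2 and 509.1, a rise of 0.64 (adjusted p = 1.65e-06). In each of these genes the low-Myc and mid-Myc arrays stood below both high-Myc arrays. For EIF2B1 the mid-Myc arrays stood above those of low-Myc, with an equal-median change of 0.29 at 1 hour. The 1-hour call of EIF2B5 (0.20, adjusted p = 0.0424) was lost without the second low-Myc array (0.14, adjusted p = 0.26) or the first mid-Myc array (0.14, adjusted p = 0.261).

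Of the 13 eIF3 genes, 12 were measured. At 24 hours 11 of these rose relative to the median gene, beside 37.7% of all tested genes. The median of the 12 was 0.62 on that scale and 1.59 per cell. EIF3J, a loosely held subunit, read 304.8 and 295.6 in low-Myc, 273.7 and 248.6 in mid-Myc and 799.9 and 779.8 in high-Myc. It rose by 1.54 (2.9-fold, SE 0.07, adjusted p = 1.24e-10). EIF3B, one of the core scaffold subunits, read 1695 and 1642, then 2012 and 1925, then 3972 and 4166. It rose by 0.39 at 1 hour (adjusted p = 6.48e-05) and by 1.43 at 24 hours (2.68-fold, SE 0.05, adjusted p = 1.22e-11).

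At the other end of the complex stood EIF3H and EIF3F, subunits of the MPN family. EIF3H read 2642 and 2655, then 2504 and 2749, then 2386 and 2480, and its equal-median change at 24 hours was 0.02 (SE 0.05, adjusted p = 0.814). EIF3F read 4037 and 3826, then 4416 and 4245, then 4067 and 4213, and its change of 0.21 (SE 0.04, adjusted p = 0.000575) turned to -0.08 under quantile normalization. In deposited intensity both high-Myc arrays read lowest for EIF3H, while for EIF3F they lay between those of low-Myc and mid-Myc. Per cell EIF3H rose by 0.91 and EIF3F by 1.02. The other 8 measured subunits had equal-median changes between 0.27 (EIF3G) and 0.98 (EIF3I). The 5 probe sets shared by EIF3C and EIF3CL, which cannot be assigned to either gene, were higher by 2.46 to 3.07 per cell at 24 hours and were not tested.

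Among the eIF4 genes, the helicase, cap-binding and scaffold members each have a relative that changed less. EIF4A1 encodes the main initiation helicase and read 4961 and 4793 in low-Myc, 6011 and 6020 in mid-Myc and 9184 and 8870 in high-Myc. It rose by 0.45 at 1 hour (adjusted p = 2.05e-06) and by 1.03 at 24 hours (2.04-fold, SE 0.04, adjusted p = 2.26e-11), and by 1.75 per cell. The groups stood apart in the order of release time. The 2 other bright EIF4A1 probe sets moved by 1.03 as well, but 4 dimmer ones, with mean intensities of 87.05 to 533.5, moved by -0.34 to -0.88, and the reason was not tested. EIF4A2, its close copy, read 2952 and 2850, then 2424 and 2462, then 2831 and 2946. Its relative change at 24 hours, 0.13 (SE 0.05, adjusted p = 0.0215), lost its call without the second low-Myc array (0.10, adjusted p = 0.144) or the second high-Myc array (0.09, adjusted p = 0.187) and turned to -0.14 under quantile normalization. Per cell EIF4A2 rose by 1.01.

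EIF4E, the cap-binding protein whose promoter boxes are printed above, read 768.4 and 797.9 in low-Myc, 691.4 and 714.7 in mid-Myc and 1334 and 1373 in high-Myc. Relative to other genes it was at -0.01 after 1 hour (adjusted p = 0.954) and rose by 0.93 by 24 hours (1.9-fold, SE 0.06, adjusted p = 3.6e-09). Per cell the 24-hour rise was 2.00. EIF4E2 encodes a relative that binds the cap without recruiting eIF4G, and read 446.3 and 441.3, then 437.8 and 437, then 579.6 and 561.7, a rise of 0.50 (1.42-fold, SE 0.06, adjusted p = 4e-06). In both genes the high-Myc arrays read well above the rest, and in deposited intensity the mid-Myc arrays read slightly below those of low-Myc. One dim EIF4E2 probe set (mean intensity 56.9) changed by -0.85 relative to other genes and -0.05 per cell.

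EIF4G1, the scaffold that links eIF4E to eIF4A, read 326 and 311.8, then 371 and 367.2, then 729.5 and 735.2. It rose by 0.36 at 1 hour (adjusted p = 0.000782) and by 1.34 at 24 hours (2.53-fold, SE 0.06, adjusted p = 2.71e-10). EIF4G2 encodes a scaffold that lacks the eIF4E-binding part, and read 4546 and 4338, then 4621 and 4486, then 4365 and 4274. Its deposited intensities overlapped between the groups. Its 24-hour equal-median change of 0.10 (SE 0.04, adjusted p = 0.0393) was not called without the second low-Myc array (0.06, adjusted p = 0.272) or without either high-Myc array, and turned to -0.17 under quantile normalization, while its per-cell rise was 0.89. EIF4B and EIF4H, which stimulate the helicase, rose by 0.85 and 0.22 relative to other genes. EIF4A3 shares the helicase fold but works in the exon junction complex on spliced mRNA, and read 850.9 and 879.6, then 1082 and 1077, then 2317 and 2294. It rose by 0.47 at 1 hour (adjusted p = 1.81e-05) and by 1.55 at 24 hours (2.93-fold, SE 0.05, adjusted p = 7.69e-12), with no overlap between groups.

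The 4E-BP genes encode inhibitors that keep eIF4E from eIF4G until mTOR phosphorylates them. EIF4EBP1 read 208.6 and 205 in low-Myc, 254.9 and 231.2 in mid-Myc and 592.6 and 596.3 in high-Myc. It rose by 0.38 at 1 hour (adjusted p = 0.001) and by 1.66 at 24 hours (3.17-fold, SE 0.07, adjusted p = 8.79e-11), and by 2.80 per cell. EIF4EBP2 read 318.4 and 327.9, then 329.7 and 327.1, then 341.3 and 320.1, with overlapping groups. Its relative change of 0.17 (SE 0.07, adjusted p = 0.0326) was not called without either low-Myc array or without the first high-Myc array (adjusted p = 0.0617 to 0.183), and turned to -0.02 under quantile normalization. Per cell it rose by 1.31.

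Both genes of subunit joining rose at 24 hours, beside 37.7% of all tested genes relative to the median gene and 90.8% per cell. EIF5B, the GTPase that brings in the large subunit, read 323.5 and 393 in low-Myc, 300.1 and 356.6 in mid-Myc and 833.1 and 961.9 in high-Myc. In each group the second array read above the first, and the change at 24 hours, 1.47 (2.77-fold, SE 0.11, adjusted p = 2.66e-08), was larger than that spread. EIF6, which keeps the subunits apart until the large one is mature, read 708.2 and 655.4, then 780.1 and 764.8, then 1183 and 1181. It rose by 0.33 at 1 hour (adjusted p = 0.000857) and 0.93 at 24 hours (1.91-fold, SE 0.06, adjusted p = 4.85e-09). Per cell the 24-hour rises were 2.62 for EIF5B and 2.02 for EIF6.

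The largest rise of all 49 genes was that of BZW2, which encodes an eIF5-mimic protein that competes with eIF5 for its partners. Its intensity was 51.5 and 45.84 in low-Myc, 49.31 and 48.21 in mid-Myc, near the level at which genes were tested (33.81), and 523 and 506.2 in high-Myc. The change at 24 hours was 3.54 relative to other genes (11.7-fold, SE 0.09, adjusted p = 1.72e-12) and 4.51 per cell (22.8-fold), and at 1 hour it was 0.15 relative to other genes (adjusted p = 0.225). The readings before 24 hours were close to the median human probe set of an array (44.54 to 50.25) and their share of background is unknown, so the size of the fold is uncertain. The 5 further BZW2 probe sets changed by 3.35 to 4.89 per cell, but 4 of them read 18.22 to 32.41 in low-Myc and mid-Myc, below the tested level, and passed it through high-Myc alone. BZW1, the other mimic, read 1960 and 1691, then 2041 and 2059, then 1965 and 2024. Both high-Myc arrays lay between those of low-Myc and mid-Myc. Its relative change of 0.27 at 24 hours (SE 0.06, adjusted p = 0.00199) was 0.16 without the second low-Myc array and turned to -0.03 under quantile normalization, and its per-cell rise was 1.21.

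The 5 elongation genes had a median equal-median change of 0.21 at 24 hours, beside 0.67 for the 34 measured initiation genes, and ranged from 0.10 for EEF1A1 to 0.93 for EEF1B2. All 5 were nonetheless called higher at 24 hours on that scale, beside 37.7% of all tested genes. EEF1A1, which delivers aminoacyl-tRNA, read 13140 and 13290 in low-Myc, 13100 and 13000 in mid-Myc and 12960 and 12780 in high-Myc. Its deposited values were nearly level, with the high-Myc arrays lowest, and its equal-median change was 0.10 (1.07-fold, SE 0.03, adjusted p = 0.0058), which turned to -0.01 under quantile normalization and -0.10 with centring on the tested genes. EEF2, the translocase, read 10150 and 9832, then 10950 and 10450, then 10380 and 10220. Its change was 0.18 (1.14-fold, SE 0.03, adjusted p = 0.000171), which turned to -0.03 under quantile normalization. Per cell EEF1A1 rose by 0.68 and EEF2 by 0.81, less than the median gene (0.97). For EEF2 this holds for the probe set used alone, since all its further probe sets rose by 1.14 to 2.01 per cell.

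The exchange factor of eEF1A has 3 subunits on the list. EEF1B2, a nucleotide exchange subunit, read 6014 and 5319 in low-Myc, 6445 and 6052 in mid-Myc and 10010 and 9550 in high-Myc. Its high-Myc arrays stood well above the other 4, and it rose by 0.93 (1.9-fold, SE 0.05, adjusted p = 1.64e-09) relative to other genes and by 1.64 per cell. EEF1G, a structural subunit, read 8275 and 8694, then 8990 and 8997, then 10050 and 9923, a rise of 0.37 (1.3-fold, SE 0.03, adjusted p = 1.86e-07). EEF1D, the second exchange subunit, read 4256 and 4118, then 5119 and 4742, then 4213 and 4593. It was brightest in mid-Myc, with changes of 0.21 at 24 hours (0.14 without the second high-Myc array, and -0.05 under quantile normalization) and -0.17 from 1 to 24 hours (adjusted p = 0.00685), the latter not called without the first high-Myc array (-0.10, adjusted p = 0.113) or the first mid-Myc array (-0.14, adjusted p = 0.0712).

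The difference between the initiation and elongation medians on the equal-median scale was 0.46 in high-Myc against low-Myc, -0.05 at 1 hour and 0.49 from 1 to 24 hours. It depended on the probe sets taken. Without probe sets marked as able to read several transcripts (identifiers ending in _x_at) the 24-hour difference was 0.16 and that from 1 to 24 hours 0.03, and with the mean of all probe sets of a gene they were 0.28 and 0.28. The elongation genes were read by bright probe sets, with mean intensities from 4493 to 13040, while the median over the initiation genes was 1246. Brightness itself is a property of the probes and sets no order of level between genes. The 1219 brightest of all tested genes (above 1017) had a median change of 0.97 per cell and 0.10 relative to other genes, against 0.97 and 0.05 over all genes. Within EEF1A1, 3 further bright probe sets (7666 to 12700) changed by 0.66 to 0.87 per cell, and 2 dim ones (210.1 and 194.4) by 1.77 and 1.82. Within EEF2, where the brightest probe set was used and gave 0.81 per cell, bright further ones (3914 to 5339) changed by 1.14 to 1.22. A dim EEF2 one (338.4) changed by 2.01. This was not general: a dim EEF1D probe set (48.65) changed by 1.05 per cell, where the bright one used gave 1.00, and the dim EIF4A1 probe sets changed by less than the bright ones. The part of probe brightness in the class difference was not tested.

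**Figure D3:**
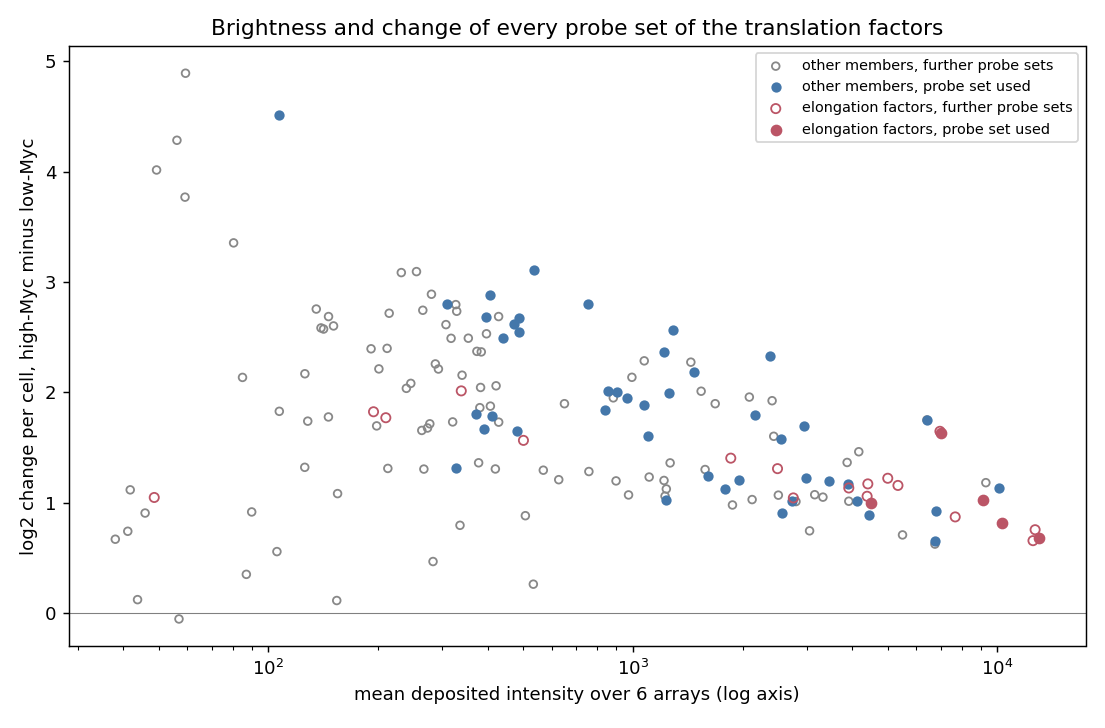
Per-cell change in high-Myc against low-Myc (log2) of every member probe set against its mean deposited intensity (log axis). Filled points are the probe sets used, open points the further ones and red the elongation genes; the red filled points lie at 4493 to 13040 intensity and low on the change axis, while most dimmer red open points lie higher.

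A further list of 10 members whose mRNAs are known to begin with a terminal oligopyrimidine (TOP) tract, the element through which mTOR controls their translation, overlaps the elongation class: it holds its 5 genes, PABPC1 and the 4 initiation genes EIF3E, EIF3F, EIF3H and EIF4B. Its equal-median median at 24 hours was 0.28, with 9 of 10 called higher, beside 37.7% of all tested genes. The median of the 39 other measured members was 0.87. The 4 initiation genes of the TOP list had a median of 0.28, beside 0.67 for all measured initiation genes. Median intensities were 5754 for the TOP genes and 1099 for the others, so brightness moves with this split too. The first 12 transcribed bases in RefSeq (GRCh38.p14) are shown for 5 of them, with the pyrimidine run from the first base in capitals. EEF1A1 starts at chr6:73521021-73521032 (minus strand), EEF1B2 at chr2:206159895-206159906 (plus), EEF2 at chr19:3985452-3985463 (minus), EIF4B at chr12:53006456-53006467 (plus) and EIF3F at chr11:7987337-7987348 (plus).
EEF1A1: CTTTTTCgcaac
EEF1B2: CCTTTTTCCTCT
EEF2: CTCTTCCgccgt
EIF4B: CTTTTgcgttct
EIF3F: CTTCTTTCTCga
A start of this kind, C followed by at least 4 pyrimidines, was found in 10 of the 42 genes with a window (23.8%) and in 1404 of 27305 genes (5.14%). These 10 are not the 10 of the TOP list: the 5 printed genes are in both, and the others with such a start are EIF2S3, EIF3D, EIF3K, EIF3M and EIF4A2. Grouped by this start, the equal-median medians at 24 hours were 0.52 for the 10 genes with it and 0.93 for the 29 measured genes without it, with no test of the difference.

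EIF5A encodes a factor that carries the unusual residue hypusine and relieves stalls in elongation. It read 1110 and 1076 in low-Myc, 1272 and 1280 in mid-Myc and 2254 and 2304 in high-Myc. It rose by 0.37 at 1 hour (adjusted p = 0.000124) and 1.20 at 24 hours (2.3-fold, SE 0.05, adjusted p = 9.08e-11) relative to other genes, and by 2.19 per cell. The 3 probe sets it shares with EIF5AL1 were higher by 2.24 to 2.72 per cell and were not tested. Of the enzymes that make hypusine, DOHH rose by 0.73 and DHPS by 0.28 at 24 hours relative to other genes. Both depend on the probe set: the other DOHH probe set gave 0.025, and only 1 of the 4 further DHPS probe sets had that sign.

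By the probe sets used, termination factors were among the genes that rose most. ETF1 encodes eRF1, which reads the stop codon, and read 507.6 and 437.3 in low-Myc, 629.2 and 692.5 in mid-Myc and 1371 and 1406 in high-Myc. It rose by 0.64 at 1 hour (adjusted p = 7.61e-05) and by 1.70 at 24 hours (3.24-fold, SE 0.08, adjusted p = 2.71e-10). GSPT1 encodes its GTPase partner eRF3a, and read 355.8 and 367.7, then 352 and 318.3, then 916.7 and 977.4. GSPT1 was at 0.04 after 1 hour (adjusted p = 0.711) and rose by 1.53 at 24 hours (2.88-fold, SE 0.07, adjusted p = 1.58e-10). Per cell the 24-hour rises were 2.80 and 2.67. The further ETF1 probe sets gave smaller equal-median changes at 24 hours, 1.08 to 1.22, and those of GSPT1 gave 1.31 to 1.98.

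Poly(A)-binding proteins coat the mRNA tail and contact eIF4G. PABPC1 read 9019 and 9043 in low-Myc, 9981 and 9831 in mid-Myc and 11790 and 11450 in high-Myc, and rose by 0.50 at 24 hours (1.42-fold, SE 0.03, adjusted p = 3.09e-09). PABPC4 read 855.6 and 853.5, then 1112 and 1041, then 2088 and 1867, and rose by 1.35 (2.54-fold, SE 0.06, adjusted p = 1.11e-10). In both genes the groups stood apart in the order of release time. Per cell they rose by 1.14 and 2.37.

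Paralogs were also compared as a ratio of deposited intensities within each array, which no single scaling factor per array can change. Because probes differ in brightness, only the change of a ratio between groups is read, not its level. The log2 ratio of EIF4A1 over EIF4A2 was 0.75 and 0.75 in low-Myc, 1.31 and 1.29 in mid-Myc and 1.70 and 1.59 in high-Myc. The helicase ratio thus moved by 0.55 at 1 hour and 0.90 at 24 hours (1.86-fold), though with the mean of all probe sets of each gene these were 0.67 and 0.17, and the step from 1 to 24 hours turned from 0.34 to -0.50. At 24 hours the change was 1.24 for EIF4G1 over EIF4G2 (2.36-fold), 1.49 for EIF4EBP1 over EIF4EBP2 (2.81-fold) and 3.27 for BZW2 over BZW1 (9.67-fold). It was 0.85 for PABPC4 over PABPC1 (1.8-fold) and 0.43 for EIF4E over EIF4E2 (1.34-fold, or 0.93 in log2 with the mean of all probe sets). In these 6 pairs the high-Myc arrays did not overlap the low-Myc arrays. How often other gene pairs do the same was not counted. Of all single genes 37.7% were called higher and 26% lower on the equal-median scale. EIF1 over EIF1B changed by -0.06, with overlapping arrays. The ERCC curve of the per-cell scale depends on intensity and so alters ratios: with both genes on that scale, a comparison added after the data were seen, the 24-hour changes were 0.74 for EIF4A1 over EIF4A2, 1.60 for EIF4G1 over EIF4G2, 1.49 for the 4E-BP pair, 3.30 for BZW2 over BZW1, 1.23 for PABPC4 over PABPC1, 0.35 for EIF4E over EIF4E2 and -0.36 for EIF1 over EIF1B. With 2 arrays against 2, the exact two-sided permutation test cannot go below p = 0.33, which was its value for all 6 pairs (0.667 for EIF1 over EIF1B). After Benjamini-Hochberg adjustment over 21 comparisons the values were 0.368 and 0.7, so no pair could pass a threshold of 0.05.

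**Figure D4:**
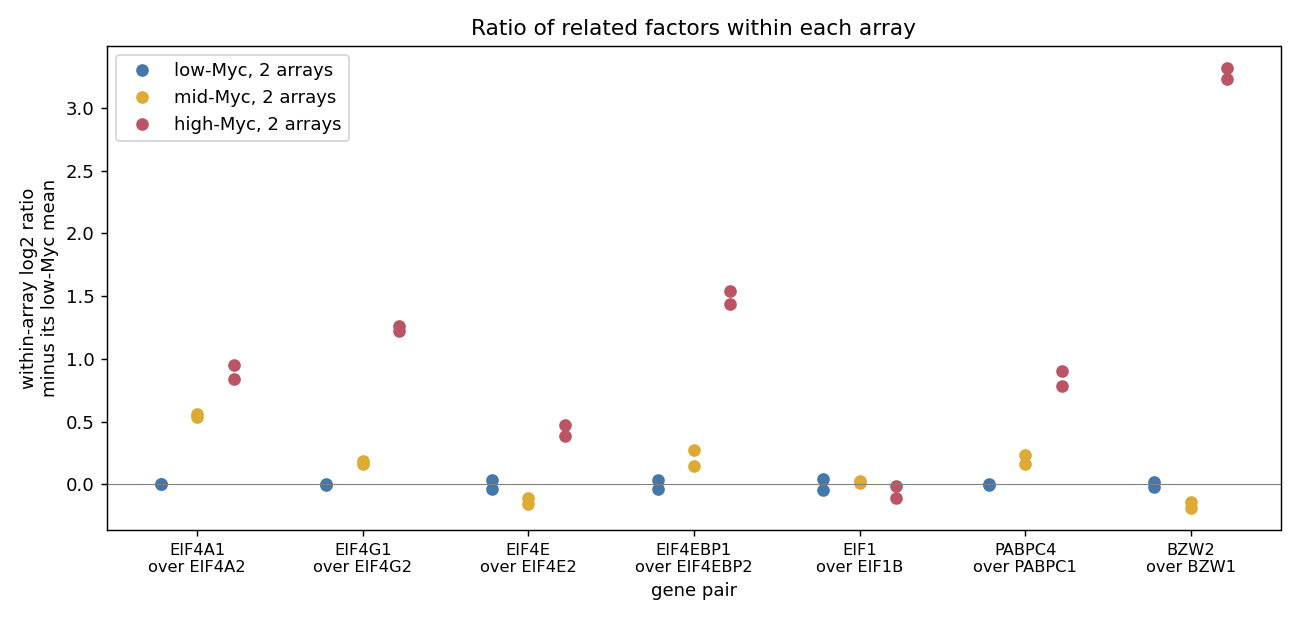
Within-array log2 ratio of 7 paralog pairs, minus its mean over the low-Myc arrays, with 2 arrays (points) in each group. BZW2 over BZW1 changes by 3.27 at high-Myc and EIF4EBP1 over EIF4EBP2 by 1.49, while EIF1 over EIF1B changes by -0.06.

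Other genes of translation and its control were taken from a list of 41, of which 36 were tested. At 24 hours 22 of them were called higher and 7 lower relative to the median gene, with a median of 0.35, beside 37.7% and 26% of all tested genes. Per cell 35 of 36 were called higher and 0 lower, where 90.8% of all genes were higher. The recycling factor ABCE1, which splits the ribosome after termination, rose by 1.80 (SE 0.08, adjusted p = 1.83e-10), and the rescue factor PELO by 1.42 (adjusted p = 1.15e-08). Of 6 listed genes of diphthamide synthesis, which builds the modified histidine of eEF2, 5 were measured and all 5 rose, DPH2 by 1.98 (SE 0.08, adjusted p = 7.78e-11) and DPH6 by 1.06. The methyltransferase partner TRMT112, which acts with the enzyme that methylates eRF1, rose by 0.96. LARP1, which binds TOP mRNAs, rose by 0.90, and the S6 kinase genes RPS6KB2 and RPS6KB1 rose by 0.78 and 0.37.

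The 7 that fell relative to the median gene included kinases of initiation factors and an inhibitor of poly(A)-binding protein. EIF2AK2 (PKR) and EIF2AK3 (PERK), which phosphorylate eIF2 alpha, stood lower by equal-median changes of -0.66 (adjusted p = 4.27e-08) and -0.61 (adjusted p = 1.06e-06), while the other 2 eIF2 kinases rose on that scale. MKNK2, a kinase of eIF4E, changed by -0.50 (adjusted p = 1.18e-06), though only 1 of its 4 further probe sets had that sign, and PAIP2B, which displaces poly(A)-binding protein, by -0.92 (SE 0.08, adjusted p = 1.06e-07). On the per-cell scale none of these fell. There EIF2AK2, EIF2AK3 and MKNK2 were called higher, by 0.35, 0.47 and 0.47, though a further EIF2AK2 probe set gave -0.10. PAIP2B was at 0.15 per cell (adjusted p = 0.0514). The poly(A)-binding partner PAIP1, the eIF2-independent factors EIF2D and EIF2A, and EEF2KMT, which methylates eEF2, rose by 0.64, 0.73, 0.58 and 0.57 relative to other genes.

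Further probe sets of the same gene give another view of these directions. At 24 hours all probe sets above the tested level had the sign of the one used in 44 of 45 genes per cell (EIF4E2 was the exception). With 90.8% of all tested genes called higher per cell, a shared sign is nearly given there. The same agreement was not counted over all genes. On the equal-median scale all signs agreed in 38 of 45, the exceptions being EIF5, EIF3F, EIF3G, EIF4A1, EIF4A2, EIF4E2 and BZW1. The 24-hour exceptions included both small relative changes (EIF4A2, 0.13) and larger ones (EIF4A1, 1.03). On the same scale all signs agreed in 34 of 45 genes at 1 hour and in 33 of 45 from 1 to 24 hours.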

How the data were processed

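RNA of P493-6 cells was measured on 6 Affymetrix arrays of 1 colour, 2 for each of 3 groups, with the same amount of total RNA labelled for each, per the labels' protocols. The authors summarised the deposited data with MAS5, per the submitters' processing notes, into linear intensities of each probe set, with an unstated scaling target, and detection calls were not used. The table held 49495 probe sets (100 ERCC), of which 45278 carried 1 gene symbol. The log2 of the deposited intensities was used on both scales. Per-cell values had a robust loess fit (span 0.7, degree 1) of each array's ERCC probe sets subtracted, and equal-median values the array's median of human probe sets. Each gene took its brightest probe set, tested above the 40th percentile (33.81 intensity). Differences were tested with limma 3.58.1 in R 4.3.3 (1 fit over 6 arrays, variance trend, two-sided, Benjamini-Hochberg, threshold 0.05), after a check on simulated data. No replicate block was used, since same-numbered arrays did not deviate together (correlations -0.003 to 0.002). P-values measure the spread between these arrays, whose number limits the precision.

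The members, classes and lists were chosen with earlier results of these data known. Full values are given for every member of a class of 4 or fewer genes, for the 2 largest and 2 smallest equal-median changes at 24 hours of larger classes, and for both genes of each paralog pair. Up to 2 related genes per group are named. Alternatives covered the centring, the ERCC fit, probe set choice, the level filter, a pseudocount (16), a fit without variance trend, the block, 2-group fits and each array left out.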

Additional observations from a re-analysis of the deposited data

How the results depend on the processing

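Fits with other filters, probe sets, centrings, ERCC curves and samples were compared with the values above. On the per-cell scale no direction turned in any of them, and the 24-hour count remained 49 of 49 in all settings except that without _x_at probe sets, which left 45 genes, all called higher. At 1 hour the per-cell calls of EEF1D, EIF2B3, EIF3E and EIF3J were lost in some settings. A fit paired by replicate number (replicate block) called 46 members higher at 24 hours, 32 at 1 hour and 35 higher and 5 lower between 1 and 24 hours on the equal-median scale, and 49, 47 and 49 higher per cell, so the counts stayed close to those without it.

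On the equal-median scale small changes turned with the centring. At 24 hours against low-Myc, quantile normalization gave -0.21 for EIF1B, -0.093 for EIF5, -0.075 for EIF3F, -0.28 for EIF3H, -0.14 for EIF4A2, -0.17 for EIF4G2, -0.024 for EIF4EBP2, -0.007 for EEF1A1, -0.051 for EEF1D, -0.027 for EEF2 and -0.034 for BZW1. Cyclic loess gave -0.14 for EIF1B, -0.12 for EIF3H, -0.009 for EIF4A2, -0.044 for EIF4G2 and -0.048 for EEF1A1. Centring on the tested genes, which moved the median of all genes from 0.05 to -0.15, gave -0.20 for EIF1B, -0.036 for EIF5, -0.19 for EIF3H, -0.071 for EIF4A2, -0.10 for EIF4G2, -0.032 for EIF4EBP2, -0.10 for EEF1A1 and -0.02 for EEF2. Values as deposited gave -0.14 for EIF1B, -0.12 for EIF3H, -0.007 for EIF4A2, -0.04 for EIF4G2 and -0.039 for EEF1A1, and the mean of all probe sets gave -0.077 for EIF4A2.

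At 1 hour against low-Myc, quantile normalization gave -0.13 for EIF2S3, -0.16 for EIF3E, -0.046 for EIF4G2, -0.079 for EEF1A1 and -0.018 for EEF1G. Cyclic loess gave -0.11 for EIF2S3, -0.17 for EIF3E, -0.039 for EIF4G2, -0.12 for EEF1A1, -0.012 for EEF1G and -0.002 for EEF2, and the deposited values gave -0.018 for EEF1A1. From 1 to 24 hours, the mean of all probe sets gave -0.45 for EIF4A1, -0.20 for EIF4E2, 0.26 for EIF4H and 0.18 for EEF1A1. Without _x_at probe sets the values were 0.60 for EEF1A1 and 0.27 for EEF1D, and EEF1A1 gave 0.072 with quantile normalization and 0.077 with cyclic loess.

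Counts moved as well. The 0 members called lower at 24 hours became 6 (quantile), 3 (cyclic loess), 5 (tested genes), 3 (as deposited) and 1 (pseudocount). At 1 hour the 30 called higher became 12 and 13 with quantile and cyclic loess, and the 0 called lower became 8, 7, 2 (tested genes), 5 (as deposited) and 1 (pseudocount). From 1 to 24 hours the 4 called lower became 8 (quantile), 11 (tested genes) and 7 (mean of all probe sets). Leaving out each array in turn gave 42 to 46 higher at 24 hours, 29 to 31 at 1 hour and 3 to 5 lower from 1 to 24 hours.

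The initiation minus elongation median at 24 hours, 0.46, was 0.28 with the mean of all probe sets, 0.16 without _x_at probe sets and 0.38 to 0.52 with an array left out. At 1 hour, -0.054 became 0.056 without _x_at, -0.008 with quantile normalization, 0.022 with cyclic loess, and -0.065 to -0.035 with an array left out. From 1 to 24 hours, 0.49 became 0.28 with the mean of all probe sets, 0.034 without _x_at, 0.35 with quantile normalization, 0.42 with cyclic loess and 0.47 to 0.53 with an array left out. The causes were not tested. Probe sets near background, such as BZW2 before 24 hours, limit the size of a fold.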
